A study of Mus musculus with 7 samples.

Results

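The 6 mouse Cyp3a genes Cyp3a11, Cyp3a13, Cyp3a16, Cyp3a25, Cyp3a41a and Cyp3a44 were examined in a peak list of CTCF and a peak list of the cohesin subunit Rad21 from female mouse liver. All 6 lie on the reverse strand of chromosome 5 in the mm9 assembly. Genes less than 500 kb apart were taken as 1 run, each run was extended by 100 kb on either side, and every peak that overlapped the extended span was kept. Cyp3a16, Cyp3a41a, Cyp3a44, Cyp3a11 and Cyp3a25 formed 1 run, with spacings of 48.6 to 275 kb between neighbours, and Cyp3a13 stood alone, 7834 kb away from the nearest of the others. The spans were chr5:146097178-146921194 for the run and chr5:138234160-138462847 for Cyp3a13. They held 49 of the 137323 peaks in both lists, made up of 13 of the 68667 CTCF peaks and 36 of the 68656 Rad21 peaks. Livers came from female Crl:CD1(ICR) mice 8 weeks old, with no treatment or genetic change named in the labels. Chromatin immunoprecipitation and sequencing (ChIP-seq) gave 4 CTCF and 3 Rad21 libraries. Each peak list was called on the pool of its libraries, so no value below has a replicate error and no difference was tested. The intervals given are 95% intervals (Wilson for shares, exact Poisson for densities) and cover counting error only. The limit given beside a count of 0 is instead the share that 3 counts of the total would make.

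Cyp3a enzymes are cytochrome P450 monooxygenases of the liver and gut that oxidise drugs, bile acids and steroid hormones such as testosterone. Cyp3a11 is a major form in adult mouse liver and a classical target of the nuclear receptor PXR, Cyp3a16 is known as a fetal and juvenile form, and Cyp3a41 and Cyp3a44 enzymes are known for higher expression in female than in male liver. RNA was not measured here. CTCF is a zinc finger protein that binds a directional DNA motif and marks boundaries and loop anchors in chromatin. Cohesin is a ring-shaped complex that extrudes DNA loops and is halted by bound CTCF, and loop anchors commonly carry CTCF motifs that point toward each other. Sites bound by both are called CAC (cohesin-and-CTCF) here, CTCF peaks without cohesin are Lone CTCF, and cohesin peaks without CTCF are CNC (cohesin-non-CTCF), a class commonly found at enhancers and active promoters. Peaks were paired where they overlapped by at least 1 bp.

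A motif matrix learned from the strongest CTCF peaks on even-numbered autosomes was scored within 100 bp of each summit on chromosome 5. Of the 13 CTCF peaks in both spans, 8 held a motif above 13.7 bits, a score that 1% of nearby control windows reach (61.5%, interval 35.5 to 82.3). On the odd-numbered autosomes 43.7% of CTCF peaks held one. The 8 matches are shown because their strand gives the direction of each site. Each is written 5′ to 3′ along its own strand from the mm9 genome, 30 bases with the 20-base match in capitals.
Near Cyp3a13, chr5:138319256-138319285, reverse strand: attaaGGAGCCAGCAGGTGGCACCAgtgga
Near Cyp3a13, chr5:138327281-138327310, forward strand: attaaGAAGCCAGCAGGTGGCAGCAgtgga
Cyp3a13 3′ end, chr5:138334370-138334399, forward strand: tcacaGAGGCCAGCAGAGGGCAATAgatca
Upstream of Cyp3a13, chr5:138378652-138378681, forward strand: tcatgCAGACCAGAAGAGGGAGACAgaacc
Upstream of Cyp3a13, chr5:138392595-138392624, reverse strand: ctaagTGTGCCAGCAGAGGTCACTGacatg
Cyp3a57 intron, chr5:146125980-146126009, reverse strand: acttaGGGGACACTAGAGGGCAACAcaaca
Cyp3a57 intron, chr5:146127281-146127310, reverse strand: tcagtCACACCAGAAGATGGCATCAgaaac
Between Cyp3a11 and Cyp3a25, chr5:146778844-146778873, reverse strand: ccttgGAGGCCAGAAGATGGCACTGgagcc
All 8 matches lay within 24 bp of the CTCF summit. All 3 matches of the run were on the reverse strand, while the 5 around Cyp3a13 included both strands. The first 2 sites near Cyp3a13 lie 7.99 kb apart on opposite strands and shared 39 of the 50 bases around the match, against 16 to 29 of 50 for the other pairs among the 8.

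Across the run, CTCF peaks were few, and most of the listed cohesin peaks were of the CNC kind, though not among those of at least 5-fold (2 of 6). The 824 kb span holds 5 member genes and, in the same annotation, Cyp3a57, Cyp3a41b and most of Cyp3a59, which ends beyond the span at 146924861. It had 4 CTCF peaks, or 5.17 per Mb of assembled sequence (interval 1.41 to 13.2), where the autosomes as a whole had 28 per Mb and chromosome 5 had 32.1. Rad21 peaks numbered 20, or 25.8 per Mb (15.8 to 39.9), against 28.1 per Mb over the autosomes. Both densities were higher in 5 kb bins where at least 80% of 50-base sequences occur once in the genome. There the run had 12.3 CTCF and 58.5 Rad21 summits per Mb, against 36.5 and 35.2 in such bins of chromosome 5. The part of repeated sequence in these densities was not tested. Every CTCF peak of the run overlapped a Rad21 peak, as did 73.7% of the whole CTCF list. Of the 20 Rad21 peaks, 16 were CNC (80%, interval 58.4 to 91.9), against 26.4% of the whole Rad21 list. From the first to the last member gene, intergenic sequence included but without the added flanks, there were 1 CTCF and 12 Rad21 peaks, and 11 of the 12 were CNC. Inside the 5 member genes there were 0 CTCF summits, and 1 Rad21 summit each in Cyp3a16, Cyp3a11 and Cyp3a25. A −log10 q of at least 10 was reached by 9 of the 20 Rad21 peaks of the run, against 64.2% of the whole Rad21 list, and by 5 of its 16 CNC peaks, against 25.1% of all CNC peaks.

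**Figure D1:**
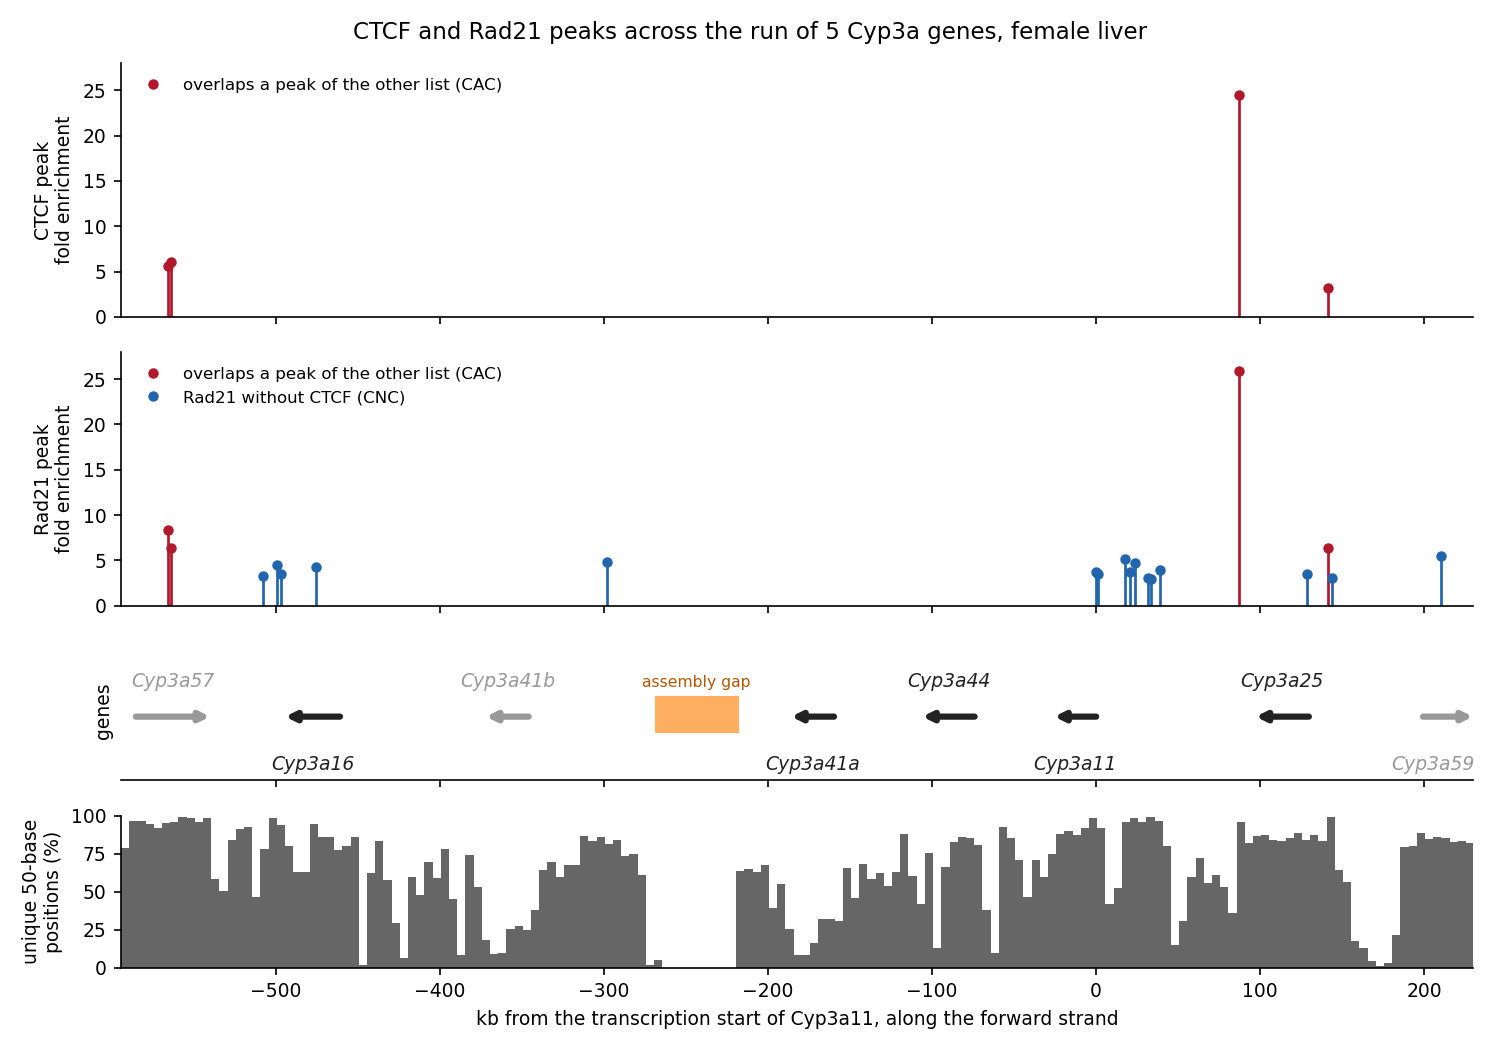
Peak summits along the run, with the fold enrichment of each CTCF peak (top) and Rad21 peak (second), the Cyp3a genes (black for members, grey for other Cyp3a genes) and the share of positions in each 5 kb bin whose 50-base sequence occurs once in the genome (bottom), against distance in kb from the start of Cyp3a11. The only peaks above 10-fold in either list are the CTCF peak of 24.5-fold and the Rad21 peak of 25.9-fold between Cyp3a11 and Cyp3a25, and no CTCF peak lies over the genes from Cyp3a16 to Cyp3a11.

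Peak strength is given as fold enrichment, the summit signal divided by a local background, and as the −log10 q written by the peak caller. The strongest site of the run was a CAC pair between Cyp3a11 and Cyp3a25, at chr5:146778620-146779104 for CTCF. Its CTCF peak had a fold enrichment of 24.5 and a −log10 q of 185, above 97.8% of the CTCF list. Its Rad21 peak at chr5:146778310-146779088 had a fold enrichment of 25.9 and a −log10 q of 285, above 99.4% of the Rad21 list. The summits were 17 bp apart, and the reverse-strand motif there scored 20.5 bits. The CTCF summit lay 87.3 kb upstream of the start of Cyp3a11 and 42.4 kb downstream of the start of Cyp3a25, in intergenic sequence, so it was the one CTCF site of the run that separated 2 member genes from each other.

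At the far side of the run a pair of CAC sites lay 1.26 kb apart in an intron of Cyp3a57, a forward-strand Cyp3a gene outside the member list. Their CTCF peaks had fold enrichments of 5.63 and 6.05, near the list median of 6.05, and their Rad21 peaks 8.40 and 6.35, above the Rad21 list median of 4.93. Their motifs scored 16.6 and 14.4 bits. The remaining CAC pair of the run, at chr5:146832552-146832748, lay 11.4 kb upstream of Cyp3a25. It was weak in CTCF, with a fold enrichment of 3.16, above only 12.5% of the list, and it held no motif. Its Rad21 peak had a fold enrichment of 6.36 with the summit 395 bp from the CTCF summit. Outside the span, the closest forward-strand motif in a CAC peak toward lower coordinates was in an intron of Zfp655, 783 kb from the strong site (CTCF fold enrichment 8.31, motif 16.8 bits). That motif and the strong site point toward each other across Cyp3a57 to Cyp3a11. Toward higher coordinates the closest was 221 kb from the strong site, in intergenic sequence (8.80-fold, 20.1 bits), and points away from it. Contacts between sites were not measured.

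Between the Cyp3a57 intron and the strong site no CTCF peak was listed over 651 kb, from 146127622 to 146778620. This stretch holds the starts of Cyp3a16, Cyp3a41b, Cyp3a41a, Cyp3a44 and Cyp3a11, and 50 kb of it is an assembly gap (146422976 to 146472975). Of the 66991 distances between neighbouring CTCF peaks on the autosomes, 367 were larger, and their median was 11.5 kb. The longest stretch without a Rad21 peak was 298 kb, from 146393367 to the peak at the start of Cyp3a11, and it holds the starts of Cyp3a41a and Cyp3a44. Among 67209 such distances, 1092 were larger. The Rad21 stretch holds the same assembly gap. Positions whose 50-base sequence occurs once in the genome made up 62.3% of the CTCF stretch and 59.1% of the Rad21 stretch. Over chromosome 5 they made up 89.1%. Neither ranking takes the gap or this share into account.

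Cyp3a11 (ENSMUSG00000056035.7, chr5:146666002-146691540) had a Rad21 peak at its start and a string of them upstream. The peak at the start, chr5:146691074-146691540, was of the CNC class with a fold enrichment of 3.76 and a −log10 q of 8.79, near the CNC median of 3.48-fold. GENCODE places the start at 146691540, the last base of the peak, 103 bp from the summit. The RefSeq promoter of Cyp3a11 matches chromosome 5 of mm9 at 1 place and puts the start at 146691430, which is 110 bp further into the gene, inside the peak and 7 bp from the summit. The RefSeq sequence before that start, chr5:146691431-146691680 on the reverse strand, is shown because 110 of its 250 bases, those nearest the start, lie in the peak. Capitals mark the letters TATAA on either strand, the last of them 41 to 37 bases before the start.
Cyp3a11 promoter: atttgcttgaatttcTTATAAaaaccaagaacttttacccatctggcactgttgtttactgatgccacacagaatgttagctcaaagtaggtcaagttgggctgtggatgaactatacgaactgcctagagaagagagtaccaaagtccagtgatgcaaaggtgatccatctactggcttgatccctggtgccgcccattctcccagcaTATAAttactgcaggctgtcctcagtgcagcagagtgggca

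Within 50 kb upstream of Cyp3a11 there were 7 CNC peaks, at 1.39, 17.4, 20.6, 23.7, 31.8, 33.3 and 38.7 kb from the start. Their fold enrichments, in that order, were 3.51, 5.17, 3.69, 4.73, 3.07, 2.90 and 3.98. Their median was 3.69, near the 3.48 of all CNC peaks, and those at 17.4 and 23.7 kb had a −log10 q of 10 or more. Of 21418 protein-coding genes on the autosomes, 15 had 7 or more CNC peaks in this interval, Cyp3a11 among them, and the median gene had 0. Counting CNC peaks with a −log10 q of at least 10, Cyp3a11 had 2, and 324 genes had as many or more. The other members had 0 to 2 CNC peaks within 50 kb upstream, with 2 at Cyp3a13, 1 at Cyp3a25 and 0 at Cyp3a16, Cyp3a41a and Cyp3a44. No CNC peak of either span held a CTCF motif (0 of 23, which allows a share of up to 13.0%), and 2.38% of CNC peaks on the odd-numbered autosomes did. At the looser score of 8.58 bits, which 5% of control windows reach, 1 of the 23 did, the peak at the start of Cyp3a11 with 9.82 bits, against 8.83% on the odd-numbered autosomes.

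**Figure D2:**
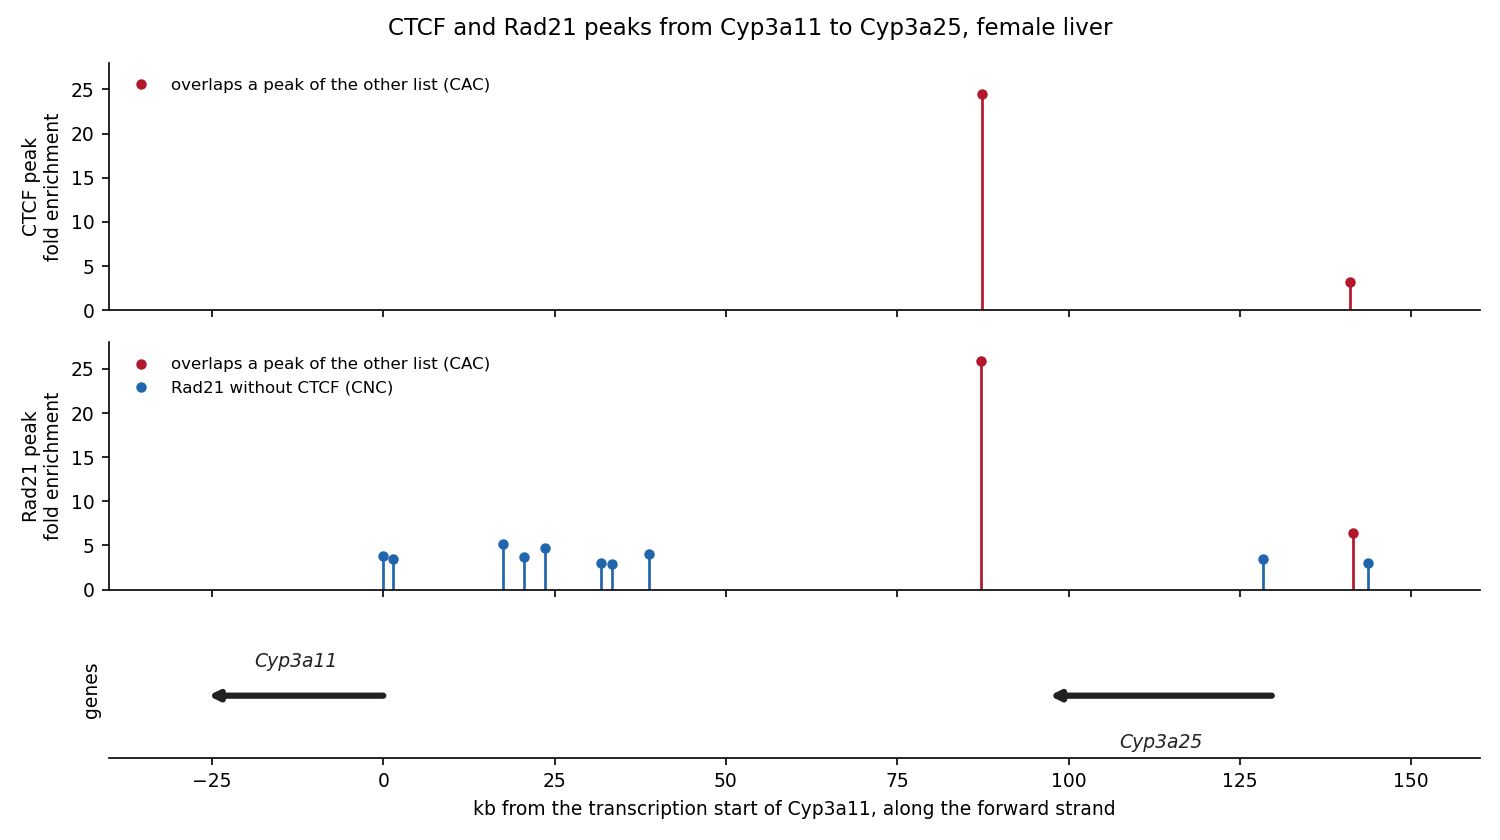
Fold enrichment of CTCF peaks (top) and Rad21 peaks (middle) from Cyp3a11 to Cyp3a25, with the 2 genes as arrows pointing in the direction of transcription (bottom), against distance in kb from the start of Cyp3a11. The Rad21 peaks at and upstream of Cyp3a11 sit between 2.90 and 5.17, far below the CAC pair at 87.3 kb with 24.5 for CTCF and 25.9 for Rad21.

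Cyp3a16, Cyp3a41a and Cyp3a44 had no peak of either list at their starts. In Cyp3a16 (ENSMUSG00000038656.5, chr5:146197178-146230592) an intron held 1 CNC peak of 4.31-fold, 14.9 kb downstream of the start. A further 3 CNC peaks of 3.32, 4.47 and 3.48-fold lay beyond its 3′ end, 35.9 to 47.2 kb from its start. Neither Cyp3a41a (ENSMUSG00000075551.3, chr5:146505635-146531712) nor Cyp3a44 (ENSMUSG00000054417.5, chr5:146585559-146617450) held a peak. The nearest Rad21 summit was 139 kb from the start of Cyp3a41a and 74.0 kb from that of Cyp3a44, and the nearest CTCF summit was the strong site, 247 and 161 kb away. Cyp3a41b, a near-copy of Cyp3a41a, had no peak inside it either, and a CNC peak of 4.81-fold lay 47.6 kb upstream.

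In Cyp3a41a and Cyp3a41b a short sequence often cannot be placed, and the same holds to a lesser degree in Cyp3a44 and Cyp3a16. Only uniquely mapped reads entered the peak lists, so the share of positions whose 50-base sequence occurs once in the genome was counted. It was 19.1% in Cyp3a41a, 17.8% in Cyp3a41b, 68.5% in Cyp3a44 and 79.0% in Cyp3a16. The share was 99.0% in Cyp3a13, 91.0% in Cyp3a11 and 85.7% in Cyp3a25, and the median over 1309 genes of chromosome 5 was 96.9%. With 100 bases the share in Cyp3a41a was 36.2%, and with 36 bases it was 13.2%. Of the repeated positions in Cyp3a41a, 99.5% recurred within the run. The length of the ChIP-seq reads was not given in the sources used here. Whether bound sites in Cyp3a41a, Cyp3a41b, Cyp3a44 and Cyp3a16 were missed because of repeated sequence was not tested.

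The promoters show how alike these copies are. The 60 bases before the RefSeq start of Cyp3a41a are printed with the matching 60 bases of its 3 nearest relatives, aligned without gaps, and capitals mark bases unlike Cyp3a41a.
Cyp3a41a: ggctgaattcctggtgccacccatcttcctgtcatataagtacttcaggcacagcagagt
Cyp3a41b: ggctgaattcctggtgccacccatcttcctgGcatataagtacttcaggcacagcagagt
Cyp3a44: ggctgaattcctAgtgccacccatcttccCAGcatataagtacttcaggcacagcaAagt
Cyp3a16: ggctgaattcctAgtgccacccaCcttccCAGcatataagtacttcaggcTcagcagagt
Over the full 300-base promoters, Cyp3a41a and Cyp3a41b were the same at 292 of 300 bases, Cyp3a41a and Cyp3a44 at 277 of 300, and Cyp3a41a and Cyp3a16 at 280 of 296 aligned bases. The unique share of these promoters was 20.3% in Cyp3a41a and Cyp3a41b, 82.3% in Cyp3a44 and 81.3% in Cyp3a16. By 50 bases the promoters of Cyp3a44 and Cyp3a16 were mostly unique, and they had no listed peak. With 36 bases the share over the whole gene was 56.0% in Cyp3a44 and 67.8% in Cyp3a16. The promoters of Cyp3a11 and Cyp3a13 were 100.0% unique, and that of Cyp3a25 was 86.0% unique.

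Peak summits of the run, like those of chromosome 5, fell almost entirely in unique sequence. Over chromosome 5, 5 kb bins with at least 80% unique positions held 4463 of the 4587 Rad21 and 4619 of the 4737 CTCF summits. In such bins of the run, which made up 325 kb, there were 19 of the 20 Rad21 summits and all 4 CTCF summits. That is 58.5 Rad21 summits per Mb (interval 35.2 to 91.3) against 35.2 per Mb in such bins over chromosome 5, and 12.3 CTCF summits per Mb (3.35 to 31.5) against 36.5. The bins with 20% to under 80% unique positions, 360 kb in all, held 1 Rad21 summit, or 2.78 per Mb (0.0703 to 15.5) against 7.88 over chromosome 5. They held no CTCF summit, which allows up to 10.2 per Mb by the exact interval, against 7.49 over chromosome 5. The 95 kb of bins under 20% unique held none of either, and such bins of chromosome 5 had 0.353 per Mb of each.

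**Figure D3:**
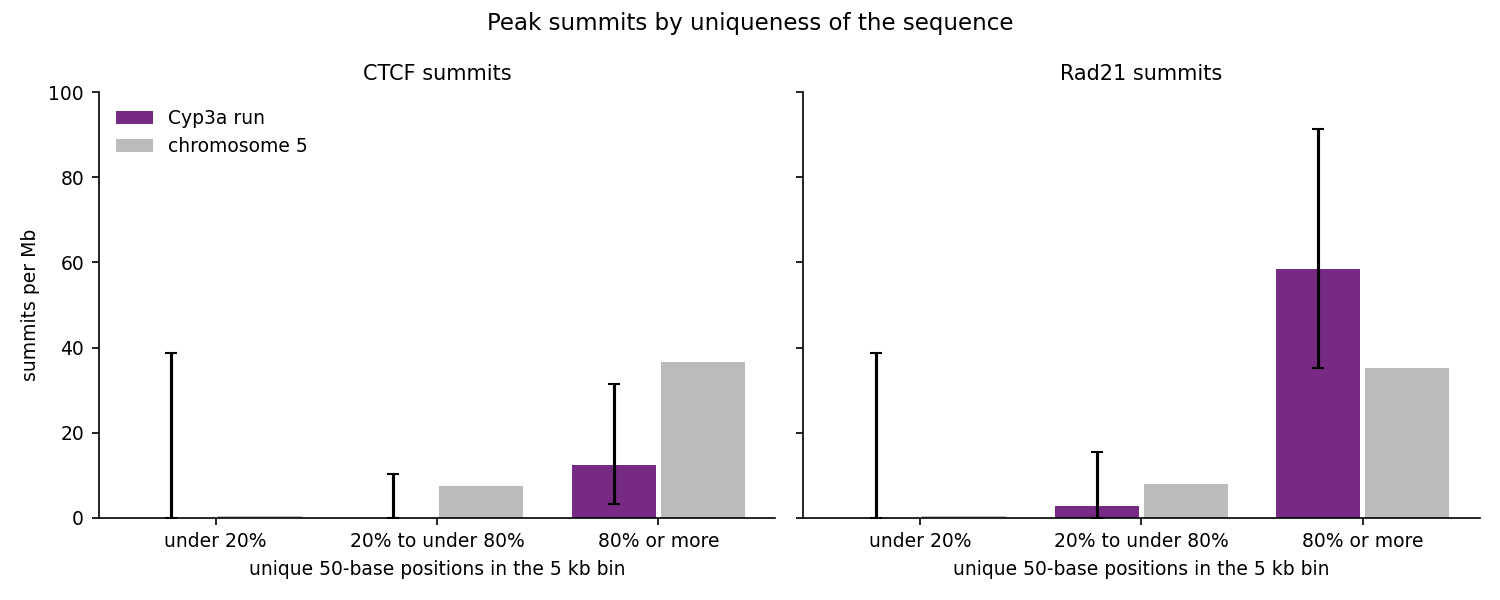
Summits per Mb of CTCF (left) and Rad21 (right) in 5 kb bins grouped by the share of unique 50-base positions, in the Cyp3a run (purple, with exact Poisson 95% intervals) and over chromosome 5 (grey). In bins of 80% or more the run has 12.3 CTCF summits per Mb against 36.5, and 58.5 Rad21 summits per Mb against 35.2. The intervals of the run there are 3.35 to 31.5 and 35.2 to 91.3, so the Rad21 interval begins at the printed chromosome 5 value.

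Cyp3a25 (ENSMUSG00000029630.9, chr5:146788770-146821194) had a CNC peak of 3.48-fold in an intron, with its summit 1.26 kb downstream of the start. The weak CAC pair 11.4 kb upstream was followed by a CNC peak of 3.06-fold at 14.0 kb. Its 3′ end faces the strong CAC site, and its start lies in a stretch where 85.2% of positions within 5 kb were unique. In the neighbouring forward-strand gene Cyp3a59 an intron held a CNC peak of 5.47-fold, the strongest CNC peak of the run.

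Cyp3a13 (ENSMUSG00000029727.7, chr5:138334160-138362847) had CTCF and cohesin peaks close by on both sides. Its 229 kb span had 9 CTCF peaks, or 39.4 per Mb (interval 18 to 74.7), and 16 Rad21 peaks, or 70.0 per Mb (40 to 114). The CTCF interval holds the autosomal 28 per Mb, and the Rad21 interval lies above the autosomal 28.1. All 9 CTCF peaks were CAC, and 7 of the 16 Rad21 peaks were CNC (43.8%, interval 23.1 to 66.8). Both shares are to be read against the whole lists, 73.7% CAC and 26.4% CNC, and the interval of the CNC share holds the latter. Near Cyp3a13 a −log10 q of at least 10 was reached by 9 of the 16 Rad21 peaks and 1 of the 7 CNC peaks, beside 64.2% and 25.1% over the list. No CTCF peak in either span was of the Lone class (0 of 13, which allows a share of up to 23.1%), a count to be set beside the 73.7% of the whole list that was CAC. The gene sat between strong CAC sites on both sides. On the 3′ side, 6.86 kb beyond its end, the CTCF peak was 16.6-fold and the Rad21 peak 18.5-fold, and on the 5′ side, 15.8 kb upstream of the start, they were 19.6-fold and 11.9-fold. Both flanking motifs are on the forward strand.

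Inside Cyp3a13 were 2 CAC sites. The CTCF peak in the 3′ untranslated region had a fold enrichment of 10.2 with a motif of 20 bits, and its Rad21 peak was 5.47-fold. The intronic one, 20.7 kb downstream of the start, was 3.30-fold for CTCF with no motif and 6.70-fold for Rad21. A CNC peak of 4.15-fold lay in an intron 5.92 kb downstream of the start. At the start itself was a CNC peak of 3.16-fold, chr5:138362615-138363031, with its summit 75 bp upstream. The peak is weak, above 15.1% of the Rad21 list. The 250 bases before the RefSeq start, chr5:138362848-138363097 on the reverse strand, are shown because 184 of them, those nearest the start, lie in this peak. No motif searched below was found in them, so none is in capitals.
Cyp3a13 promoter: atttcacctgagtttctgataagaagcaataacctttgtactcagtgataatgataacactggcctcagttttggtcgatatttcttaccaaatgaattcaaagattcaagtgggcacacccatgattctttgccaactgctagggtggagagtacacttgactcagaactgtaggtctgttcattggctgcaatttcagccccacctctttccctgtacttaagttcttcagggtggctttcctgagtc

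Further upstream of Cyp3a13 a CAC pair of 12.3-fold for CTCF and 12.6-fold for Rad21 carried a reverse-strand motif of 16.2 bits. Between it and the gene, a CNC peak of 2.82-fold was the weakest CNC peak of the span. Beyond it, 3 CAC pairs without a motif lay at and just upstream of Azgp1, the gene for a secreted zinc-binding glycoprotein of the liver. Their CTCF fold enrichments were 9.07, 2.96 and 3.30. The last 4 CNC peaks, of 6.30, 3.31, 3.42 and 2.99-fold, were clustered 4.53 to 11.7 kb upstream of Smok3a.

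**Figure D4:**
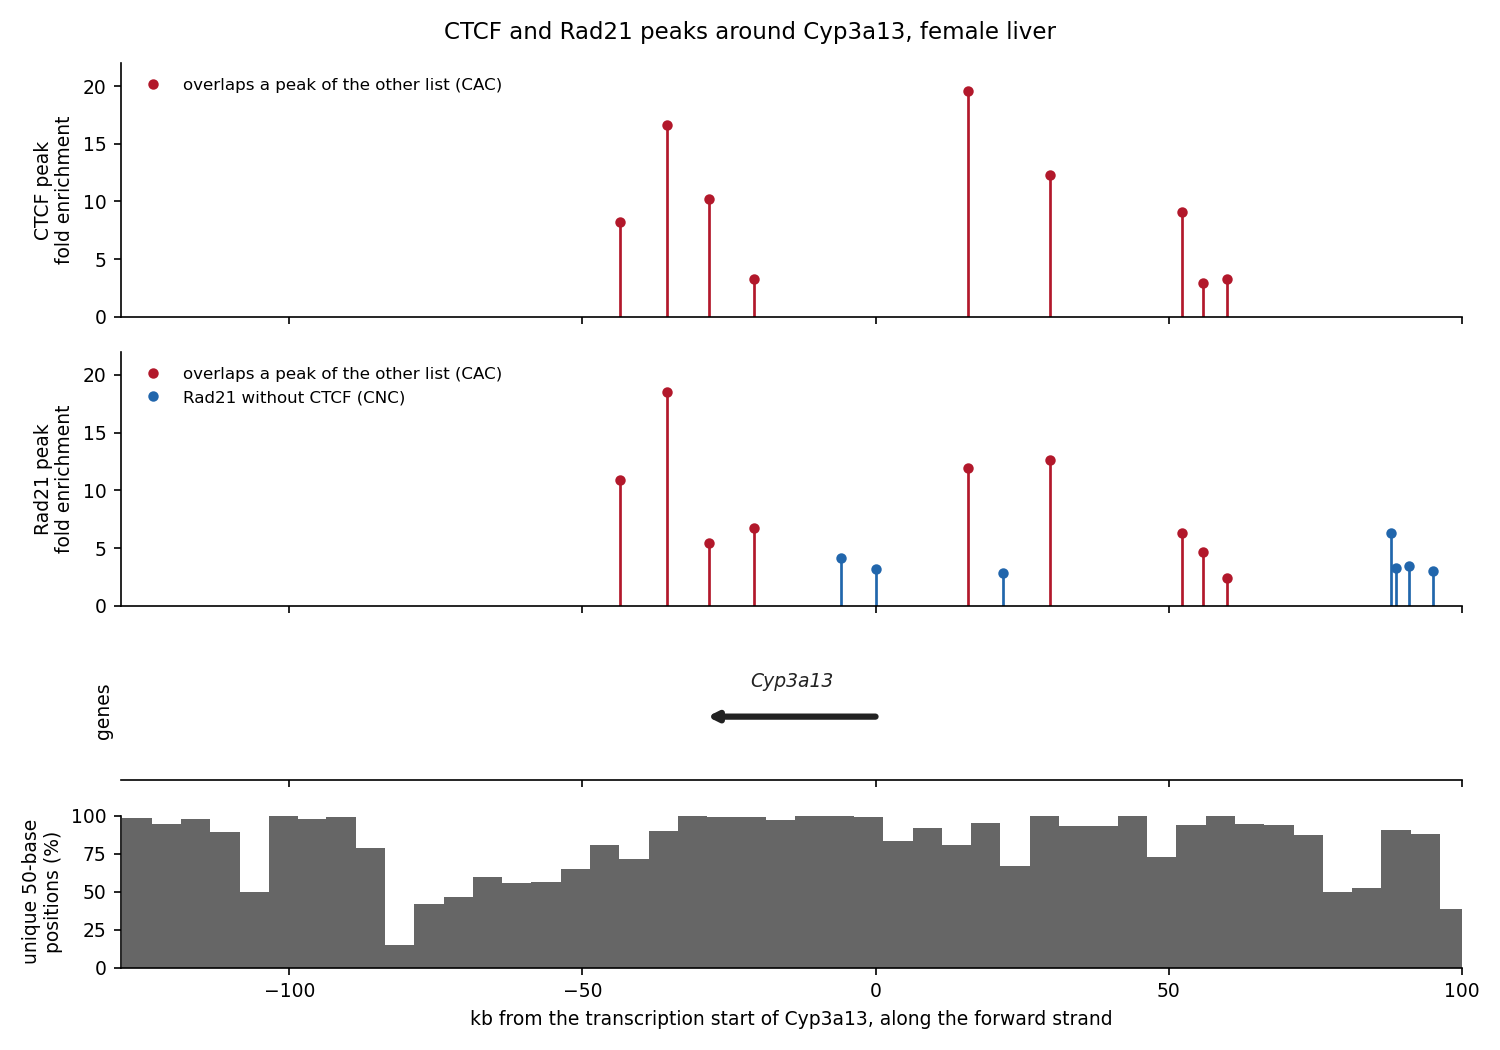
Fold enrichment of CTCF peaks (top) and Rad21 peaks (second) around Cyp3a13, with the gene as an arrow in the direction of transcription and the share of unique 50-base positions in 5 kb bins (bottom), against distance in kb from its start. CAC pairs reach 16.6 and 19.6-fold in CTCF on the 2 sides of the gene, and the peaks at and just inside the start are Rad21 peaks of 3.16 and 4.15-fold without CTCF.

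Of the members, Cyp3a11, Cyp3a16, Cyp3a44 and Cyp3a41a lay far from CTCF for protein-coding genes. The members were widely spread in their distance to cohesin. From the closest to the farthest CTCF summit, the distances to the start were 11.4 kb in Cyp3a25, 15.8 kb in Cyp3a13, 87.3 kb in Cyp3a11, 103 kb in Cyp3a16, 161 kb in Cyp3a44 and 247 kb in Cyp3a41a. Without CTCF peaks of a −log10 q under 10, the distance in Cyp3a25 was 42.4 kb, which puts Cyp3a13 first. The median over the 6 members was 95.3 kb, against 1.06 kb over 21418 protein-coding genes. The distances of Cyp3a11, Cyp3a44 and Cyp3a41a all run to the strong site of the run, so they are not separate. Of all genes, 72.4% lay nearer to CTCF than Cyp3a25 and 75.9% nearer than Cyp3a13. No member had a CTCF summit within 5 kb of its start (0 of 6, which allows a share of up to 50%), while 63.3% of all genes did. For Rad21 the order was 75 bp in Cyp3a13, 103 bp in Cyp3a11, 1.26 kb in Cyp3a25, 14.9 kb in Cyp3a16, 74.0 kb in Cyp3a44 and 139 kb in Cyp3a41a. The median was 8.07 kb, against 1.12 kb over all genes. A Rad21 summit within 5 kb was present in 3 of 6 members (50%, interval 18.8 to 81.2), against 61.9% of all genes. The peaks of these 3 summits had a −log10 q under 10. Counting peaks of at least 10, no member had a summit within 5 kb (0 of 6), against 52.1% of all genes, and the distances were 15.8 kb in Cyp3a13, 17.4 kb in Cyp3a11 and 11.8 kb in Cyp3a25. A Rad21 peak covered the start in Cyp3a13 and Cyp3a11, against 33.2% of all genes, and with the GENCODE start the overlap in Cyp3a11 rests on the last base of the peak.

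**Figure D5:**
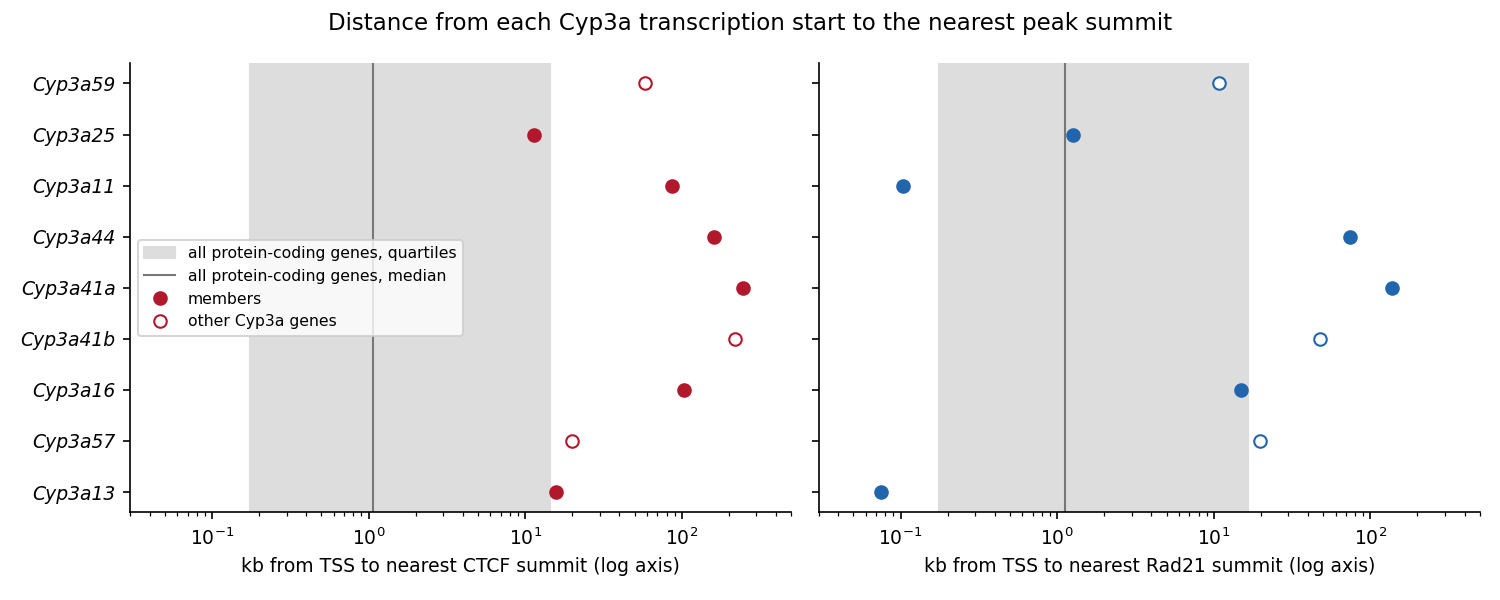
Distance in kb, on a log axis, from each Cyp3a transcription start (TSS) to the nearest CTCF summit (left) and Rad21 summit (right), with filled points for members, open points for other Cyp3a genes, and the quartiles and median of all protein-coding genes in grey. Every member except Cyp3a25 lies beyond the upper quartile of 14.5 kb for CTCF, and Cyp3a13 and Cyp3a11 lie below the lower quartile of 0.176 kb for Rad21.

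Short motifs were searched on both strands of the 300-base RefSeq promoters of the 6 members and of Cyp3a41b, Cyp3a57 and Cyp3a59, each of which matched chromosome 5 of mm9 at 1 place. The letters TATAA, the core of a TATA box, were found in 8 of the 9 promoters, all but Cyp3a13, and in 24.9% of 32851 promoters. The promoters of Cyp3a41a, Cyp3a41b, Cyp3a44 and Cyp3a16 are 92.0 to 97.3% identical to each other over their aligned bases, so the 8 are not separate occurrences. In Cyp3a41a, Cyp3a41b and Cyp3a44 the copy nearest the start began 26 bases before it, in Cyp3a16 30 bases and in Cyp3a11 41 bases. In Cyp3a25, Cyp3a57 and Cyp3a59 the only copy was much farther out, 185 to 188 bases before the start, and each was followed by CAAAGGTCA, the letters of a nuclear receptor site, found in 0.478% of all promoters. Those 3 promoters share sequence with each other (288 of 299 bases between Cyp3a25 and Cyp3a59), so here too the matches are not separate. TTGCNNAA, a C/EBP-like motif, was found in Cyp3a25 and in 10.8% of promoters. TTCNNNGAA, the STAT5 motif, was in none of the 9 and in 8.30% of all promoters. A match describes letters and not binding.

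Other clusters of liver enzyme genes, treated the same way, had more CTCF peaks per Mb of all sequence than the Cyp3a run. The Cyp2c cluster had 17 CTCF and 23 Rad21 peaks, or 12.3 (interval 7.17 to 19.7) and 16.7 per Mb. Its CTCF interval overlapped that of the Cyp3a run. In bins of at least 80% unique positions the run itself had 12.3 CTCF summits per Mb. Unique positions were not counted in the Cyp2c or the Cyp2a and Cyp2b cluster, so their densities in such bins are not known. The Ugt2b cluster, also on chromosome 5, had 32.5 CTCF (21.2 to 47.6) and 41.2 Rad21 peaks per Mb, and the Cyp2a and Cyp2b cluster had 37.9 (28.9 to 48.9) and 38.6. Unique positions made up 64.5% of the run and 84.5% of the Ugt2b span. In bins of at least 80% unique positions the Ugt2b cluster had 39.7 CTCF (25.4 to 59.0) and 51.2 Rad21 summits per Mb (34.8 to 72.7). The share of Rad21 peaks without CTCF was 39.1% in the Cyp2c cluster (22.2 to 59.2), 48.5% in the Ugt2b cluster (32.5 to 64.8) and 31.7% in the Cyp2a and Cyp2b cluster (21.3 to 44.2), against 80% (58.4 to 91.9) in the Cyp3a run. Among Rad21 peaks with a −log10 q of at least 10 the share was 5 of 9 in the run (55.6%, interval 26.7 to 81.1), 26.7% in the Cyp2c cluster (10.9 to 52.0), 25% in the Ugt2b cluster (11.2 to 46.9) and 15.8% in the Cyp2a and Cyp2b cluster (7.44 to 30.4), with 10.3% over the list. Among those of at least 5-fold it was 2 of 6 in the run (33.3%, interval 9.68 to 70.0), 10.7 to 16.7% in the Ugt2b and the Cyp2a and Cyp2b clusters, 1 of 10 in the Cyp2c cluster and 5.28% over the list. All intervals of the run at these minimums overlapped those of the other clusters. These differences were not tested.

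At the edges of the run's span, the outermost peaks inside were the Cyp3a57 CAC pair 28.7 kb from one edge and the Cyp3a59 CNC peak 19.4 kb from the other. Just outside the first edge were a CNC peak of 3.32-fold at 19.1 kb and a CAC CTCF peak of 6.87-fold at 41.5 kb. Just outside the other was a Lone CTCF peak of 6.18-fold at 63.3 kb, followed by a CAC pair with a Rad21 peak of 8.79-fold at 78.0 kb. For Cyp3a13 the CNC peaks nearest the edges were one of 4.32-fold, 1.02 kb outside, and one of 2.99-fold, 4.76 kb inside.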

How the data were processed

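Per the labels and the study's methods, the authors aligned ChIP-seq reads of 4 CTCF and 3 Rad21 female liver libraries with Bowtie2 against mm9. Reads that mapped to several places were discarded, libraries of the same protein were merged, and MACS2 called peaks on each merged set, after which blacklisted peaks and peaks of identical reads only were removed. The deposited columns give a score, a fold enrichment (ratio over local background), a −log10 p-value (not used here) and a −log10 q-value, and the summit. Read depth is unknown from these files. No peak ran past a chromosome end of mm9.

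Genes, starts and exons came from GENCODE vM1 (protein-coding genes on autosomes, 1 start per gene), and promoters from RefSeq (GRCm38.p6), found in mm9 by exact match. Python 3.11.15, numpy 2.4.6, pandas 2.3.3, scipy 1.17.1 and samtools 1.23.1 were used. The CTCF matrix was learned from 1000 peaks on even-numbered autosomes and scored on odd-numbered ones. Uniqueness is the share of positions whose 50-base sequence occurs once in the genome on either strand. Overlap and uniqueness code was tested on simulated data. Peaks were named by rule: every CAC pair, the 3 strongest peaks of each other class, every peak within 5 kb of a member start or inside a member, and the nearest CAC pair beyond each end. The remaining peaks of both spans are given besides. The members and lists were chosen with earlier results of these data known. No test was made. The choices varied were the flank, a minimum −log10 q or fold, the overlap rule, the motif score and search width, the start used and the sequence length for uniqueness.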

Additional observations from a re-analysis of the deposited data

How the results depend on the processing

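Of 91 alternative values, 60 stayed within 1.5 times of the value reported and 31 did not. Requiring a −log10 q of at least 10 left 9 Rad21 peaks near Cyp3a13 and 9 in the run, with 3 and 6 CNC peaks, and moved the median distance to Rad21 to 28 kb. A minimum fold of 5 left 8 and 6 Rad21 peaks, with 2 and 3 CNC peaks. These CNC counts include CAC peaks whose CTCF partner was removed by the same minimum. Of the CNC peaks as first classed, 1 near Cyp3a13 and 5 in the run had a −log10 q of at least 10, and 1 and 2 had a fold of at least 5. Their share of the Rad21 peaks of the run was 55.6% at the former and 33.3% at the latter, in place of 80%. In bins of at least 80% unique positions the run had 12.3 CTCF summits per Mb in place of 5.17 and 58.5 Rad21 summits in place of 25.8. At the score of the 5% background rate 1 CNC peak held a CTCF motif in place of 0. With flanks of 50 kb the run had 2 CTCF peaks and the Cyp3a13 span 9 Rad21 peaks. With flanks of 200 kb the run had 10 CTCF peaks, and the Cyp3a13 span 28 CTCF and 35 Rad21 peaks. The counts of CNC peaks thus depend on the minimum, while the motif counts of CTCF peaks and the median distance to CTCF kept their values under the alternatives run for them, although the distance in Cyp3a25 moved from 11.4 to 42.4 kb at a −log10 q of at least 10. After the data were seen, further alternatives were added. These are the counts and shares of CNC peaks as first classed, the densities in unique bins and the motif count of CNC peaks, given above, and 3 more: a −log10 q of at least 10 left 2 of the 7 CNC peaks upstream of Cyp3a11 and 0 members with a Rad21 summit within 5 kb, and the RefSeq start moved the Rad21 summit of Cyp3a11 from 103 to 7 bp from the start. No paired analysis was possible because each list was called on a pool and its columns carry no replicate, and for the same reason no replicate could be left out. Depth cannot be read from these files. The assembly gap holds no sequence. In Cyp3a41a, Cyp3a41b, Cyp3a44 and Cyp3a16 the part of repeated sequence in the absence of peaks, at the start or in the gene, was not tested. Nor was its part in the peak densities of the run.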
